A study of Mus musculus with 12 samples.

Results

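Doxycycline (Dox) was given for 24 h to 3 clones of mouse embryonic stem cells (mESCs) whose inducible Xist lacks the A-repeat, and the chromatin-associated RNA of each clone with Dox was compared with that of the same clone without it. The 6 libraries labelled XistDelA (clones C1, 2C2 and C11, NoDox and Dox) were taken by label out of 12 in the series. All lines are female iXist-ChrX mESCs from a 129S X Cast cross, in which a TetOn promoter stands in place of the endogenous Xist promoter on the 129S allele, so that Dox drives Xist from that X chromosome only. It is called Xi here, and the Castaneus X is called Xa. The A-repeat was deleted by CRISPR, each clone is a separate cell line, and the file headers name the deletion A8 in C1 and 2C2 and A6 in C11. Whether A6 and A8 are the same deletion is not known from the labels. The cells were grown in serum and LIF on mitomycin-inactivated mouse fibroblasts, and Dox was given at 1.0 to 1.5 µg/mL. For comparison there was 1 pair of libraries of WT, which has the same TetOn promoter and no deletion in Xist, and there were 2 pairs of XistDelm6A_11C (11C), which lacks the m6A region next to the A-repeat.

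The files list 22556 genes, each with a count of all read pairs over the gene's whole span, introns included and by strand, and with counts for the 129S and the Castaneus genome. Without Dox the libraries held 25742430 (C1), 22949578 (2C2) and 26081951 (C11) counts on genes. With Dox they held 27489603, 27300014 and 27469878. From 44.6% to 47.1% of these counts were assigned to a parental genome. Levels are given as RPM, read pairs per 1000000 counts on genes, in the order C1, 2C2, C11. Changes with Dox are log2 fold changes, with a minus sign for a fall, and where 3 are given they are those of the 3 clones in the same order.

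The mESC markers were present in every library. Their 8 genes summed to 1570, 1486 and 1660 RPM without Dox and to 1694, 1790 and 1770 RPM with Dox, and Zfp42 had the most reads. Sox2 had 0 counts in all 6 libraries, and it lies inside the span of Sox2ot on the same strand, where the counting leaves read pairs out. The study's methods describe the cells taken for RNA as pre-plated and free of feeders. The 14 fibroblast markers summed to 77.7, 72.2 and 77.9 RPM without Dox and to 72.6, 76.2 and 78.7 RPM with Dox, with the most reads in Fbn1 and no marker at 0. Of the 11 that could be tested, S100a4 passed as lower, a call that was lost when any of the clones was left out, and the other 10 did not pass. Without 2C2, 1 of 12 tested was called higher, where 8.86% of all tested genes were. The 7 neural markers summed to 134, 158 and 147 RPM and to 134, 166 and 145 RPM, mostly Map2, with Sox1 at 0 counts, and the 7 endoderm markers to 26.6, 34.7 and 44.5 RPM and to 31.4, 39.7 and 43.6 RPM, mostly Dab2. Of 7 tested mESC markers 3 were called lower and 1 higher, where 14.9% and 14.8% of all tested genes were, and 1 was left lower without C1, with the length trend removed and in the fit of all 12 libraries. Of 5 tested endoderm markers 1 was called lower, which was lost without C1 or 2C2, in DESeq2 and in the fit of all 12 libraries. Without C11, 1 of 4 tested was higher and 1 lower, where 16.5% and 17.0% of all tested genes were. None of the 6 tested neural markers passed, and 1 was called lower with the length trend removed. In bulk RNA, fewer cells of a type and less RNA per cell cannot be told apart.

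Xist is a long non-coding RNA that coats the X chromosome it is made from and silences its genes. The A-repeat, a run of short repeats near its 5′ end, is the part known to be needed for silencing, and it binds SPEN, a protein that brings in histone deacetylase complexes. Xist without the A-repeat still coats the chromosome. RNA that stays with chromatin is mostly nascent, so that it follows transcription more closely than whole-cell RNA does.

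The A-repeat is shown by its repeat units in the reference, because it is the element whose deletion the labels give for these clones. The study describes a precise deletion of the A-repeat and an earlier, larger one, and which of these each clone carries is not stated in the labels. The motif GGATAC, in capitals here, was searched on the RNA strand of the transcript Xist-201 of GENCODE M21, 17946 nucleotides long. It occurs 10 times, 7 of them between nucleotides 356 and 713 in exon 1 and 3 in the 17233 nucleotides that follow. On GRCm38 the 7 units lie on the minus strand between chrX:103482542-103482567 (unit 7) and chrX:103482874-103482899 (unit 1). Each is given with the 15 bases before the motif and the 5 after it.
unit 1: gcccatcggggccacGGATACctgtg
unit 2: gcccaacggggttttGGATACttacc
unit 3: gcccatctgggctgtGGATACctgct
unit 4: gcccatcggggccatGGATACctgct
unit 5: gtccatcgggacctcGGATACctgcg
unit 6: gcccaacggggcctcGGATACctgct
unit 7: gcccatcggggctgtGGATACctgct
The counts are sums over the whole Xist gene and do not show the deletion itself, so they check the labels only through the rise of Xist with Dox.

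Xist rose with Dox in all 3 clones. The gene (ENSMUSG00000086503.4, chromosome X from 103460372 to 103483233 in the files, mm10) was at 124, 126 and 158 RPM without Dox and at 1543, 1267 and 1600.0 RPM with Dox, folds of 12.5, 10.1 and 10.1. The levels with and without Dox did not overlap, and the exact two-sided permutation p was 0.1, the smallest that 3 against 3 libraries can give. In the paired fit the log2 fold change was 3.41 (SE 0.06, edgeR adjusted p = 8.7e-28). This adjusted p, like all others here unless a different test is named, comes from the quasi-likelihood test of edgeR with the clone as a block and Benjamini-Hochberg adjustment over all genes tested, with a threshold of 0.05. From 98.2% to 99.8% of the allelic Xist counts came from 129S in the 6 libraries. With Dox, WT reached 5514 RPM and the 11C pairs 3140 and 4576 RPM, from 297, 100.1 and 85.6 RPM without it.

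Tsix, the antisense RNA transcribed through the Xist gene that holds Xist back in cis, fell on the induced chromosome in all 3 clones. Its gene (ENSMUSG00000085715.2) runs the other way across Xist, on the plus strand of chromosome X from 103431516 to 103484957. Of its allelic counts, Xi held 51.0% without Dox and 36.4% with Dox in C1 (95% Wilson interval 35.0% to 37.8%). The share went from 50.3% to 35.9% in 2C2 (34.6% to 37.3%) and from 51.0% to 41.6% in C11 (40.2% to 43.0%). The reads carry no molecular identifiers, and the intervals are for counting error only. On Xi, Tsix went from 105, 95.3 and 106 RPM to 62.0, 60.6 and 77.0 RPM, and on Xa from 101, 94.2 and 102 RPM to 108 RPM in each clone. C11, the clone with the highest Xist level, had the smallest fall. In WT the Xi share of Tsix went from 49.1% to 18.0%, and in the 11C pairs from 51.7% to 19.3% and from 48.8% to 31.6%. Summed over both alleles, Tsix had a log2 fold change of -0.24 (SE 0.05, edgeR adjusted p = 1.8e-04), and its adjusted p was 0.0777 when all 12 libraries entered the edgeR fit.

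**Figure D1:**
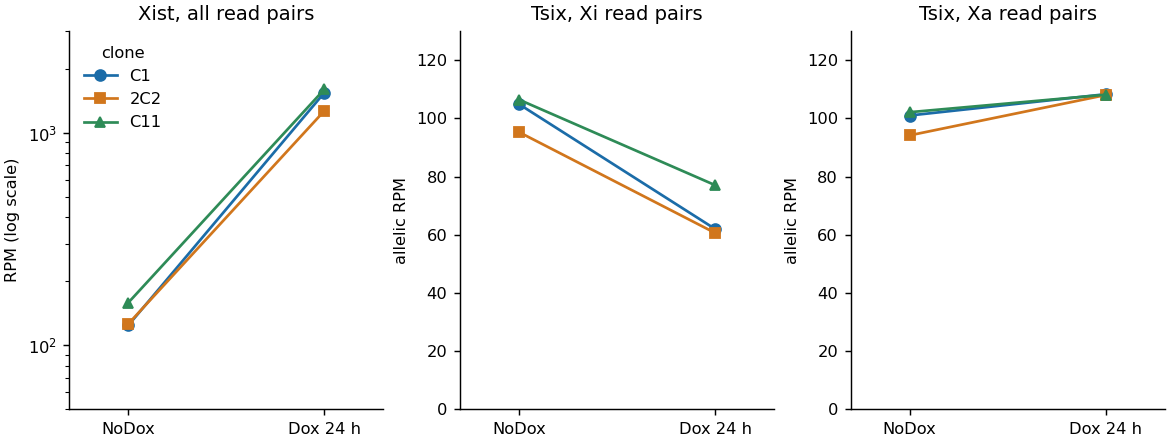
Levels of Xist (all read pairs, log scale) and of Tsix on Xi and on Xa (allelic read pairs) in RPM, without Dox and after 24 h of Dox, with 1 line per clone. Xist is higher with Dox in every clone, the Xi reads of Tsix are lower in every clone, and its Xa reads are at 108 RPM with Dox in all 3.

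Beyond Xist, 24 h of Dox came with many small changes on the autosomes. Of 14866 genes tested, 4410 (29.7%) passed the threshold, 2199 (14.8%) higher and 2211 (14.9%) lower with Dox. Among 14274 autosomal genes, 2150 (15.1%) rose and 2024 (14.2%) fell. The rises had a median log2 fold change of 0.30 and the falls one of -0.28, and 20 of the rises and 29 of the falls reached a log2 change of 1. Of the genes that rose, 2070 (96.3%) were higher in all 3 clones, and of those that fell, 1959 (96.8%) were lower in all 3. The genes were called from these same 3 clones, so that this agreement follows in part from the call. The size differed between clones. The median of the rises was 0.32, 0.35 and 0.23, and that of the falls -0.29, -0.33 and -0.21, so that both were smallest in C11.

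Whether a clone moved like the other 2 was read from fits that left it out. Of 1014 genes that rose in a fit of 2C2 and C11, 981 (96.7%) were higher in C1, and of 1137 that fell, 1115 (98.1%) were lower in it. For 2C2 against a fit of C1 and C11 the counts were 1304 of 1325 (98.4%) and 1392 of 1460 (95.3%). For C11 they were 2109 of 2465 (85.6%) and 2269 of 2530 (89.7%), and the genes called in C1 and 2C2 had medians of 0.17 and -0.17 in C11, against 0.33 and -0.31 in the pair that called them. C11 thus moved mostly the same way, by smaller amounts. The number of calls depended on the fit. Without the clone as a block 3 genes passed (Xist, Rapgef4 and Cdh3), DESeq2 with the clone in its design called 2638, which were all among the 4410, a fit of all 12 libraries called 1759, and without C1 or 2C2 there were 2152 and 2786.

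The largest changes named here are among genes that average 50 counts or more and moved the same way in all 3 clones. With that limit, Duox1 and Rapgef4 had the largest autosomal rises. Rapgef4 (ENSMUSG00000049044.16, chromosome 2 from 71981214 to 72257474), which codes for EPAC2, a cAMP-activated exchange factor for Rap GTPases, was at 19.3, 22.2 and 29.7 RPM without Dox and 167, 214 and 252 RPM with Dox. Every Dox library was above every NoDox library, and the log2 fold change was 3.12 (SE 0.06, edgeR adjusted p = 5.6e-27, higher in 3 of 3 clones). Duox1 (ENSMUSG00000033268.8, chromosome 2 from 122315671 to 122347972), an NADPH oxidase that makes hydrogen peroxide, was at 0.622, 0.523 and 0.920 RPM without Dox and 5.02, 6.67 and 10.3 RPM with Dox. It was low in every NoDox library, and its log2 fold change was 3.37 (SE 0.18, edgeR adjusted p = 2.6e-14). Cdh3, P-cadherin (chromosome 8 from 106510851 to 106556911), was at 37.5, 33.7 and 44.2 RPM without Dox and 97.9, 85.8 and 99.7 RPM with Dox. It rose by 1.27 in log2 (SE 0.06, edgeR adjusted p = 9.1e-16), and its groups did not overlap either.

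These rises were not confined to the A-repeat clones. In the WT pair the log2 changes of Rapgef4, Duox1 and Cdh3 were 2.45, 3.73 and 1.15, and in the 11C pairs they were 3.44 and 2.91 for Rapgef4, 2.95 and 2.15 for Duox1 and 1.71 and 0.76 for Cdh3. The tested difference between 11C and XistDelA did not pass for any of the 3 genes (edgeR adjusted p = 0.882, 0.425 and 0.994). The read pairs of Rapgef4 were higher with Dox on both parental genomes, with mean log2 changes of 3.19 on 129S and 3.09 on Castaneus.

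Of the other 9 autosomal genes with the largest rises under that limit, 4933413J09Rik (1.12) and Gprc5a (0.92), a membrane receptor induced by retinoic acid, moved by similar amounts in the clones, at 1.02, 1.18 and 1.21 and 1.03, 1.06 and 0.73. 1190002F15Rik rose most in C1 (2.25, 1.34 and 0.98), where it started lowest, at 0.971, 1.53 and 6.67 RPM without Dox and 4.73, 4.07 and 13.4 RPM with Dox. Tdrkh, a Tudor protein of the piRNA pathway, rose most in 2C2 (0.93, 1.54 and 0.49), as did Zfp362 (0.61, 1.26 and 0.72), a zinc finger protein, and Dscaml1 (0.80, 1.28 and 0.53), a cell adhesion molecule of neurons. Adck2, a kinase-like protein of mitochondria, rose evenly (0.87, 0.95 and 0.77), while its changes were 0.27 in WT and -0.02 and -0.38 in the 11C pairs. The difference of Adck2 from 11C did not pass (-1.01, SE 0.24, edgeR adjusted p = 0.0697). Gm5089 rose by 0.93 and Fosb, a subunit of the AP-1 transcription factor, by 0.86, with 9.79, 7.10 and 4.75 RPM without Dox and 19.8, 11.9 and 8.63 RPM with Dox. Fosb was under 0.35 RPM in all 4 libraries of 11C, so that its changes there rest on few counts.

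Among the 12 largest autosomal falls under the same limit, H3f3b had the highest level per length without Dox (68.4 RPM per kb, against 1.01 for Cxcl16, the next). It codes for histone H3.3 (ENSMUSG00000016559.14, chromosome 11 from 116021960 to 116024504) and was at 209.7, 206 and 106 RPM without Dox and 85.8, 98.4 and 66.1 RPM with Dox. The groups did not overlap, C11 without Dox was just above the other clones with Dox, and the log2 fold change was -1.05 (SE 0.07, edgeR adjusted p = 3.8e-12). H3f3b has near-identical copies in the genome, and the assignment of its reads is uncertain to that extent. Tmem132d, a membrane protein with a long gene, was at 89.7, 114 and 289.9 RPM without Dox and 33.1, 57.5 and 166 RPM with Dox. It was highest in C11 in both states, and within the clones it fell by -1.44, -1.05 and -0.82.

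The remaining falls were in genes at low levels. Gpnmb, a glycoprotein of lysosomes and melanosomes, fell most of the 12 (-1.19, SE 0.14), at 5.01, 6.19 and 6.79 RPM without Dox and 1.67, 3.0 and 3.46 RPM with Dox. Oca2, a melanosomal membrane protein, fell by -0.71, -0.43 and -1.61, so that C11 carried most of its change, and without C11 the log2 fold change of Oca2 was -0.59 with an edgeR adjusted p of 0.0569. Trpm1, a cation channel of retina and pigment cells, fell by -0.79, -1.52 and -1.01. Cxcl16, a chemokine with a membrane anchor, fell by -0.97, -1.33 and -1.11 and Maff, a small MAF transcription factor, by -0.68, -0.94 and -1.27. Sall3, a zinc finger transcription factor, fell by -1.19, -0.75 and -1.24, and Gpr83, a G protein-coupled receptor, by -1.32, -1.18 and -0.76. Slc30a3, a zinc transporter of synaptic vesicles, fell by -1.01, and Kctd19 and Eqtn, both known from male germ cells, by -1.0 and -1.03. All 12 were also lower in the WT pair, from -1.29 (Cxcl16) to -0.40 (Slc30a3).

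**Figure D2:**
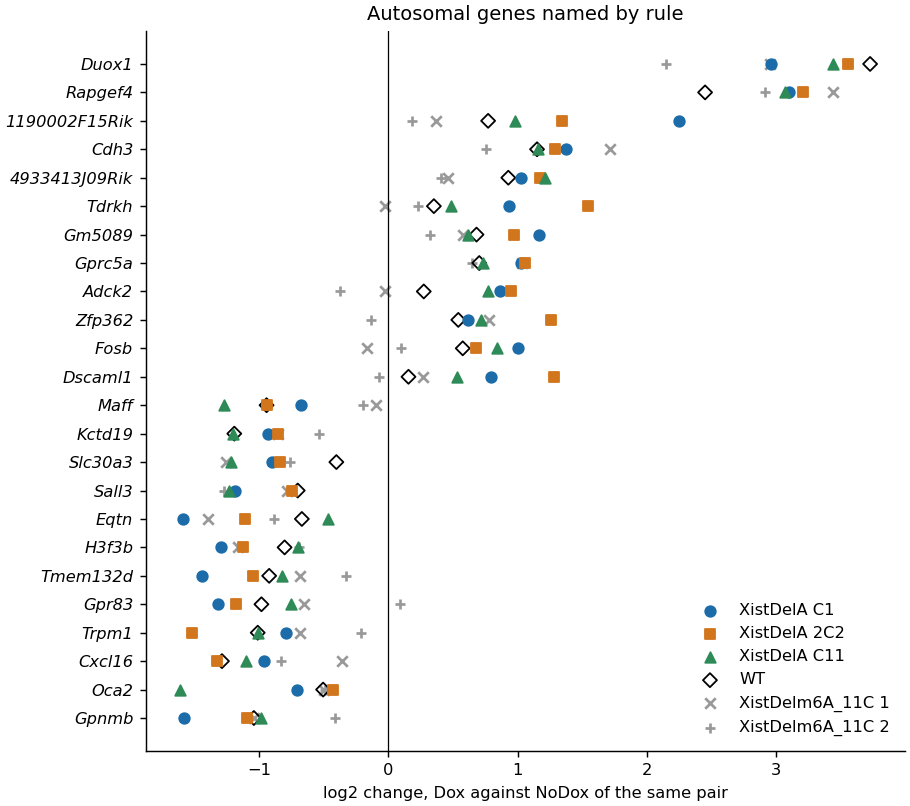
Log2 change of Dox against NoDox for the 12 autosomal genes with the largest rise and the 12 with the largest fall, among those that average 50 counts or more, with filled points for the 3 XistDelA clones, open diamonds for the WT pair and grey crosses for the 2 pairs of XistDelm6A_11C. The XistDelA points of a gene lie on the same side of 0 in all 24 genes because the genes were chosen so, and the diamonds, which were not used in the choice, lie on that side too.

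Over the autosomal calls that average 50 counts or more, the WT pair moved the same way as the clones in 1772 of 2063 genes that rose (85.9%) and in 1780 of 1937 that fell (91.9%). The shares were lower in the 11C pairs, 63.3% and 69.3% of the rises and 75.1% and 60.8% of the falls. These lines share no library with the XistDelA clones. WT has 1 pair, and its difference from the clones was not tested.

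The direction of the autosomal change went with gene length. When the tested autosomal genes were ordered by length into 10 groups of equal size, the median log2 fold change went from -0.13 in the shortest group (median length 2932.5 bases) to 0.14 in the longest (231566 bases). In the longest group 40.6% of genes rose and 7.14% fell, and in the shortest 1.19% rose and 19.8% fell. C1 and 2C2 carried most of this, with medians from -0.25 to 0.18 and from -0.15 to 0.18, against -0.01 to 0.07 in C11. In the WT pair the medians went from -0.08 to 0.05. After a smooth trend on length was removed from each library, 4340 genes passed, of which 3534 were among the 4410. Of all genes 1836 were then higher and 2504 lower, against 2199 and 2211, and of autosomal genes 1791 and 2304, against 2150 and 2024. What sets the trend was not tested.

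**Figure D3:**
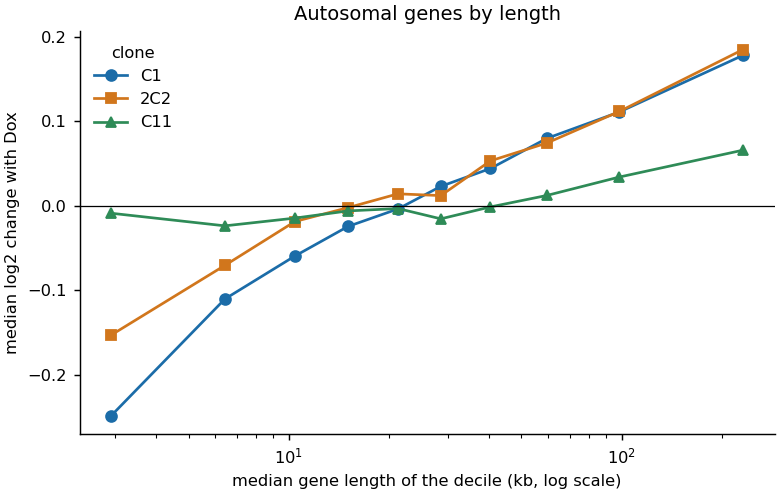
Median log2 change with Dox of the tested autosomal genes in 10 groups of rising gene length, against the median length of each group (log scale), with 1 line per clone. The lines of C1 and 2C2 climb from below 0 to 0.18, and that of C11 stays between -0.02 and 0.07.

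Lists of genes of known pathways were read by their counts and their median, beside 14.8% higher, 14.9% lower and a median of 0.01 over all genes. The shares over all genes differ between fits, and counts of a list in another fit are to be read beside that fit's own shares. Without C1 they were 6.83% higher and 7.65% lower, without 2C2 8.86% and 9.76%, and without C11 16.5% and 17.0%. They were 7.79% and 9.96% in DESeq2, 5.44% and 5.38% in the fit of all 12 libraries and 12.4% and 16.8% with the length trend removed. Among the targets of BMP, Nodal, FGF and other signals 13 of 21 fell, 4 rose and 4 did not pass, with a median of -0.36. Lefty2, a feedback inhibitor of Nodal, was at 160.3, 155 and 105 RPM without Dox and 89.5, 77.7 and 64.9 RPM with Dox. It fell in every clone (-0.85, -1.06 and -0.70, SE of the mean change 0.06, edgeR adjusted p = 4.7e-12). Nodal itself fell by -0.28. The BMP targets Id2 and Id1 fell by -0.78 and -0.70, the latter mostly in 2C2 (-0.43, -1.54 and -0.05). The feedback inhibitors of FGF and ERK signalling fell as well, Dusp4 by -0.55, Spry4 by -0.52, Dusp6 by -0.48 and Spry2 by -0.42, whereas Etv5, a transcription factor induced by FGF, rose by 0.13. Smad7, an inhibitor of the TGF-beta receptors, rose by 0.49, at 78.1, 90.0 and 106 RPM without Dox and 115, 146 and 131 RPM with Dox. The call of Etv5 was lost under RLE scaling, in DESeq2, without C1 or 2C2, with the length trend removed and in the fit of all 12 libraries. That fit did not call Nodal or Id1 either. Nodal was lost without C1 (-0.14) and in DESeq2, and Id1 without 2C2 (-0.26) and with the length trend removed (-0.49). Dusp6 was not called in DESeq2. DESeq2 called 5 lower and 1 higher in this list, 1 was called higher without C1 or 2C2, and in the WT pair Dusp6 and Spry2 were at 0.12 and 0.35.

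Many genes of sterol synthesis and uptake fell. Of 24 tested, 13 fell, 1 rose and 10 did not pass, and the median was -0.16. Insig1, which holds the SREBP factors back in the endoplasmic reticulum, fell most, at 90.5, 94.3 and 79.4 RPM without Dox and 46.1, 52.5 and 50.3 RPM with Dox. Its log2 fold change was -0.85 (SE 0.06, edgeR adjusted p = 2.5e-11). Cyp51, an enzyme of sterol synthesis, fell by -0.42. Pmvk, an enzyme of the mevalonate pathway, rose by 0.38, a call that was lost in DESeq2 and without 2C2 or C11. In WT the changes of Insig1 and Cyp51 were -0.72 and -0.45.

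Of 22 genes of glycolysis and the hypoxia response 11 fell, 4 rose and 7 did not pass (median -0.19). Ldha, which makes lactate from pyruvate, was at 106, 115 and 113 RPM without Dox and 66.9, 80.4 and 94.5 RPM with Dox. It fell by -0.51 (SE 0.06), Tpi1 by -0.49, Aldoa by -0.43 and the glucose transporter gene Slc2a3 by -0.44. The X-linked Pgk1 fell by -0.47. Vegfa, the angiogenic factor induced by hypoxia, rose by 0.55, and Hk1 by 0.29, a call lost when any of the clones was left out, in DESeq2, with the length trend removed and in the fit of all 12 libraries. In the 11C pairs Vegfa was at -0.16 and -0.45, and the difference from the clones passed (-0.82, SE 0.15, edgeR adjusted p = 0.0182). Ldha, Tpi1, Aldoa and Pgk1 have near-identical pseudogene copies, and the assignment of their reads is uncertain. Without C1 the counts were 7 lower and 1 higher, and 1 was called higher without 2C2 and in DESeq2. With the length trend removed 11 were lower and 2 higher.

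In the list of Atf4, which codes for a transcription factor of the integrated stress response, and its targets 17 of 41 rose, 5 fell and 19 did not pass (median 0.10). The gene Atf4 was at 63.7, 65.9 and 66.3 RPM without Dox and 52.6, 55.3 and 63.5 RPM with Dox, a log2 fold change of -0.22, and the stress factors Atf3 and Ddit3 fell by -0.53 and -0.44. Jdp2 rose by 0.72, Aldh1l2, a mitochondrial folate enzyme, by 0.70, the glycine transporter gene Slc6a9 by 0.64, Pck2 by 0.61 and the cysteinyl-tRNA synthetase gene Cars by 0.48. Cars was at 83.1, 67.9 and 84.6 RPM without Dox and 111, 101 and 121 RPM with Dox, with no overlap between the groups. Nupr1 had the largest change (1.12), at 0.622, 0.436 and 0.652 RPM without Dox and 1.20, 1.10 and 1.49 RPM with Dox. The 5 falls became 2 without C1 and 3 without 2C2 or in DESeq2. The median of the list was 0.19 without C1 and 0.15 with the length trend removed. The call of Atf4 was lost without C1 or 2C2, with the length trend removed and in the fit of all 12 libraries, and that of Ddit3 without C11, in DESeq2 and in that fit. In the 11C pairs Aldh1l2 was at -0.15 and -0.17 and Slc7a11, a cystine transporter that rose by 0.43 here, at -0.48 and -0.25, but neither difference between the lines passed (edgeR adjusted p = 0.0632 and 0.143). The rise of Slc7a11 was not called when any of the clones was left out.

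Chaperones fell or did not pass. Of 12 heat shock and unfolded protein genes 6 fell and 6 did not pass, with a median of -0.21. Hspa5, the chaperone of the endoplasmic reticulum, was at 189, 225 and 192 RPM without Dox and 114, 156 and 149.9 RPM with Dox and fell by -0.56 (SE 0.06). Hsp90aa1 fell by -0.38 and Hspa8 by -0.27, with C11 nearest to 0 in each (-0.54, -0.48 and -0.14 and -0.45, -0.30 and -0.06), and the call of Hspa8 was lost without C1, in DESeq2 and in the fit of all 12 libraries. Without C1, 3 of the list fell, and in the fit of all 12 libraries 2. With the length trend removed 4 fell and the median was -0.12. Among 19 genes of mitochondrial stress and protein quality 6 fell, 2 rose and 11 did not pass (median -0.05), and without C1 3 fell. Hspd1, the mitochondrial chaperonin, fell by -0.33, the protease gene Lonp1 by -0.32 and Tfb2m, a mitochondrial transcription factor, by -0.39, whereas Oma1, a stress-activated protease, rose by 0.43 and Tfb1m by 0.42. Genes of the mitochondrial genome are not in the files, so mitochondrial transcripts themselves could not be read.

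Of 20 p53 target genes 6 rose, 2 fell and 12 did not pass (median 0.12), while DESeq2, with 7.79% and 9.96% over all genes, called 2 higher and 1 lower. Cdkn1a, the cell cycle inhibitor p21, was at 21.8, 18.2 and 15.0 RPM without Dox and 28.4, 26.6 and 20.4 RPM with Dox and rose by 0.43 (SE 0.08). Fas, a death receptor, rose by 0.68 and Polk, a DNA polymerase for damaged templates, by 0.35. Without 2C2 the call of Fas was lost (0.56, edgeR adjusted p = 0.0728), and 4 of the list rose there. Trp53inp1 and Ccng1 fell by -0.35 and -0.24, and Mdm2 was at 0.12 (edgeR adjusted p = 0.0647). Of 14 immediate early genes 4 fell, 2 rose and 8 did not pass (median -0.20, or -0.06 with the length trend removed). The median was -0.12 without C1 and -0.11 without 2C2, and without C11 6 of the list fell. Myc fell by -0.69, Egr1 by -0.67, Klf6 by -0.57 and Ier2 by -0.57, the last mostly in C1 (-1.20, -0.33 and -0.20). The call of Ier2 was lost without C1 (-0.26, edgeR adjusted p = 0.252). Jund and Fosb rose, Jund by 0.19, 1.02 and 0.71 in the clones, and without 2C2 the call of 1 of them was lost.

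Naive pluripotency genes split. Of 16 tested, 7 fell, 4 rose and 5 did not pass, with a median of -0.03. Klf2, Klf4 and Tfcp2l1, transcription factors of the naive network, fell by -0.46, -0.33 and -0.31, and the X-linked Nr0b1 by -0.34. Zfp42 (REX1) rose by 0.40, at 689, 621 and 698 RPM without Dox and 912, 908 and 887 RPM with Dox, and the orphan receptor gene Nr5a2 by 0.24. Pou5f1 was at 64.7, 58.7 and 64.0 RPM without Dox and 49.4, 58.8 and 61.8 RPM with Dox, and its fall of -0.17 came mainly from C1 and was not called without it, in DESeq2, with the length trend removed or in the fit of all 12 libraries. Without C1, 3 of the list fell and 2 rose. Reads of Pou5f1 are uncertain because of near-identical copies. Tdgf1, a Nodal coreceptor on the list of mESC markers, fell by -0.44. Among 16 genes of primed pluripotency and early lineages 2 fell, 1 rose and 13 did not pass. Sox7 fell by -1.13 from levels at or under 1.15 RPM, Cdh2, N-cadherin, by -0.19, and T (Brachyury) rose by 0.53. The calls of all 3 were lost without C1, and that of T when any of the clones was left out.

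The fit of all 12 libraries called fewer genes in these lists, as it did over all genes (5.44% higher and 5.38% lower). It called 7 lower and 1 higher in the signalling list, 8 lower and 0 higher in the sterol list, 6 lower and 1 higher in glycolysis and hypoxia, and 12 higher and 1 lower among Atf4 and its targets. Of mitochondrial stress genes 3 were lower and 2 higher, of p53 targets 1 and 3, and of immediate early genes 4 and 1. Of naive genes 4 were lower and 1 higher, and no primed gene was called.

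**Figure D4:**
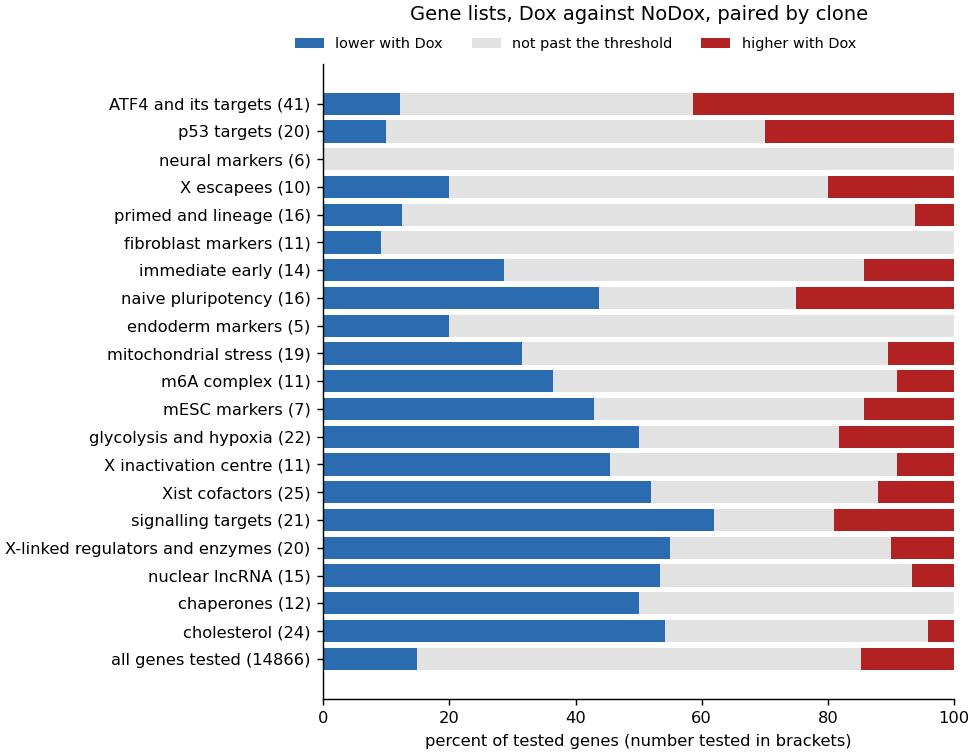
Share of the tested genes of each list that were lower, not past the threshold or higher with Dox in the 3 clones (edgeR, paired by clone, adjusted p threshold 0.05), with the number tested in brackets and all genes at the bottom. The signalling list has the largest share of its genes lower, 61.9%, and the list of ATF4 targets has the largest share higher, 41.5%.

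Proteins that work with Xist were also read. SPEN binds the A-repeat, RBM15 and RBM15B bring the m6A writer to Xist, HNRNPK recruits the Polycomb complex with PCGF5, and LBR and CIZ1 tie Xist to nuclear structures. Of 25 such genes 13 fell, 3 rose and 9 did not pass (median -0.13). Hnrnpk was at 517, 616 and 531 RPM without Dox and 409, 465 and 452 RPM with Dox and fell by -0.35 (SE 0.05). Rbm15b fell by -0.35, Ptbp1 by -0.32, Matr3 by -0.31 and Suz12, a Polycomb subunit, by -0.29. Without C1 the call of Rbm15b was lost (-0.22, edgeR adjusted p = 0.219). Spen itself was at 101, 97.1 and 121 RPM without Dox and 89.9, 104 and 95.4 RPM with Dox, lower in C1 and C11 and not in 2C2, with a log2 fold change of -0.17 (edgeR adjusted p = 0.0329), which did not pass without C1 or C11, in DESeq2 or in the fit of all 12 libraries. Pcgf5, Jarid2 and Ezh2, all of Polycomb complexes, rose by 0.31, 0.28 and 0.21. Without C1, 5 of the list fell, and without C11 5 rose. The fit of all 12 libraries called 6 lower and 1 higher.

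In the m6A machinery 4 of 11 fell, 1 rose and 6 did not pass (median -0.10). Rbm15 fell by -0.27, Cbll1 by -0.23 and the nuclear reader gene Ythdc1 by -0.34, at 384, 442 and 405 RPM without Dox and 319, 338 and 332 RPM with Dox. Fto, which codes for a demethylase, rose by 0.26, and Mettl3, the catalytic subunit, was at -0.10 (edgeR adjusted p = 0.293). Without C1, 2 of the list fell, and the call of Cbll1 was lost there, in DESeq2 and in the fit of all 12 libraries. The rise of Fto was lost with the length trend removed and in the fit of all 12 libraries. Of 15 nuclear non-coding RNAs 8 fell, 1 rose and 6 did not pass (median -0.14). Snhg1 and Gas5, hosts of small nucleolar RNAs, fell by -0.35 and -0.34, Malat1 by -0.18, and Airn rose by 0.20. Malat1 was not called without C1, with the length trend removed or in the fit of all 12 libraries. The 8 falls became 4 with the length trend removed, 5 in DESeq2, 2 without C1 or in the fit of all 12 libraries and 5 without 2C2, and the rise of Airn was lost with the length trend removed, in DESeq2, without C1 or 2C2 and in the fit of all 12 libraries. Without C11, 2 of the list rose and 9 fell, with a median of -0.22. With the length trend removed the median was -0.05.

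Of 590 X-linked genes tested other than Xist, 186 (31.5%) fell and 48 (8.14%) rose, beside 14.2% and 15.1% of autosomal genes. Of the falls, 181 (97.3%) were lower in all 3 clones, which follows in part from a call made on these same clones. The median fall was -0.33, with -0.33 in C1, -0.34 in 2C2 and -0.29 in C11. The X chromosome had a median log2 fold change of -0.12, while the autosomes lay between -0.02 (chromosome 3) and 0.04 (chromosome 12). Without C1 there were 123 falls and 15 rises, without 2C2 147 and 26, and DESeq2 called 141 and 21. The fit of all 12 libraries called 94 lower and 15 higher. Within each clone, the gap between the median log2 change of 478 genes on the X and of 11593 on autosomes (X minus autosomes) was -0.09, -0.15 and -0.12, with a mean of -0.12 ± 0.03 (SD, n = 3). An exact sign-flip test over 3 clones cannot give a two-sided p under 0.25, and it gave 0.25.

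The X-linked falls were of similar size in the 3 clones, while the autosomal calls were smaller in C11. Of 193 X-linked genes that fell in a fit of C1 and 2C2, 183 were lower in C11. The counterparts were 121 of 123 in C1 and 145 of 147 in 2C2. Of 67 X-linked genes that rose in C1 and 2C2, 50 were higher in C11, against 15 of 15 in C1 and 25 of 26 in 2C2. Along the X chromosome in windows of 20 Mb, the median change relative to autosomes was -0.03, -0.08 and -0.04 between 0 and 20 Mb, at the proximal end. Between 120 and 140 Mb it was -0.27, -0.28 and -0.18, the most negative window in C1 and 2C2, and in C11 the window from 80 to 100 Mb was lowest, at -0.22. Every window was below 0 in every clone.

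Rlim, the ubiquitin ligase that promotes Xist expression by degrading REX1, had the highest level per length among the 10 X-linked genes with the largest falls. The gene (ENSMUSG00000056537.11, chromosome X from 103957166 to 103981284) was at 930.4, 909 and 740.4 RPM without Dox and 685, 596 and 414 RPM with Dox, and every Dox library was below every NoDox library. The log2 fold change was -0.66 (SE 0.05, edgeR adjusted p = 5.1e-10), with -0.45, -0.67 and -0.86 in the clones, -1.47 in WT and -1.50 and -0.92 in the 11C pairs. Ap1s2, a subunit of a clathrin adaptor, was at 400.4, 706 and 498 RPM without Dox and 226, 461 and 343 RPM with Dox. It fell in each clone, but 2C2 with Dox stayed above C1 without it, and the log2 fold change was -0.69 (SE 0.05). Sat1, which acetylates polyamines, fell by -0.68 (31.0, 44.6 and 37.5 RPM without Dox and 19.8, 27.2 and 24.6 RPM with Dox).

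Gpr143, a receptor of melanosomes, had the largest fall among X-linked genes that average 50 counts or more and were lower in all 3 clones, -0.87 (SE 0.13), at 5.59, 6.93 and 9.28 RPM without Dox and 3.67, 4.29 and 4.11 RPM with Dox. It fell more in C11 than in C1 (-0.61, -0.75 and -1.19), as did Ripply1 (-0.48, -0.65 and -1.24), a repressor in somite formation, and Gabra3 (-0.39, -0.67 and -0.79), a GABA receptor subunit. Armcx1, which acts in mitochondrial transport, fell by -0.61, the neuronal membrane protein gene Slitrk4 by -0.63, Egfl6 by -0.63 and Tceal7 by -0.61. Without 2C2 the log2 fold change of Egfl6 was -0.55 (edgeR adjusted p = 0.089) and the log2 fold change of Tceal7 was -0.62 (edgeR adjusted p = 0.0701). In the fit of all 12 libraries the call of Tceal7 was lost as well (-0.61, edgeR adjusted p = 0.0508). All 10 genes were lower in WT by more than in the mean of the clones, from -1.51 (Ripply1) to -0.95 (Sat1), with 1 WT pair and no test.

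A smaller set of X-linked genes rose. Slc25a43, of the family of mitochondrial carriers (chromosome X from 36743631 to 36777307), was at 9.56, 9.50 and 9.55 RPM without Dox and 16.3, 17.0 and 13.5 RPM with Dox. All 3 Dox libraries were above all 3 NoDox libraries, and the log2 fold change was 0.67 (SE 0.09, edgeR adjusted p = 3.2e-06). Tsc22d3, a glucocorticoid-induced leucine zipper protein, rose by 0.79, 0.81 and 0.16 and Frmd7, a protein of growing neurites, by 0.79, 0.44 and 0.33. The non-coding 3010001F23Rik and Gm14634 rose by 0.66, 1.09 and 0.09 and by 0.58, 0.71 and 0.12, and Zmat1, a zinc finger protein, by 0.40, 0.64 and 0.28. C11 had the smallest rise in all 6 genes. Without 2C2 the calls of 3010001F23Rik, Gm14634 and Zmat1 were lost, with log2 fold changes of 0.39, 0.37 and 0.35 (edgeR adjusted p = 0.122, 0.0673 and 0.121). Without C1 those of 3010001F23Rik and Gm14634 were lost, at 0.53 and 0.41 (edgeR adjusted p = 0.0534 and 0.063), and DESeq2 called none of these 3. Zmat1 was not called in the fit of all 12 libraries either (0.44, edgeR adjusted p = 0.0898). In the WT pair none of the 6 was higher, with values from -0.50 (3010001F23Rik) to -0.05 (Slc25a43 and Frmd7).

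Of 11 tested genes of the X inactivation centre 5 fell, 1 rose (Xist) and 5 did not pass, with a median of -0.20, and without C1 3 fell, while without C11 3 were called higher. In the fit of all 12 libraries 1 was called lower, and with the length trend removed 4 were, with a median of -0.14. Among them, beside Rlim and Tsix, were Nap1l2, a nucleosome assembly protein (-0.27), and Chic1 (-0.20). Neither was called without C1 or in the fit of all 12 libraries, nor Nap1l2 without 2C2, in DESeq2 or with the length trend removed. Chic1 was at 244, 251 and 205 RPM without Dox and 215, 214 and 192 RPM with Dox. Jpx, a non-coding activator of Xist, was at 0.51, 0.22 and -0.33 in the clones and did not pass, although it was called higher without C11. Among 10 genes known to escape X inactivation 2 fell, 2 rose and 6 did not pass (median -0.08). Ddx3x, an RNA helicase, fell by -0.36 and Pbdc1 by -0.30, while Shroom4 rose by 0.26 and Mid1 by 0.13, with 1 rise called under RLE scaling, without C1 or without C11. Neither was called with the length trend removed or in the fit of all 12 libraries. Mid1 was at 528, 546 and 9358 RPM without Dox and 581, 622 and 10386 RPM with Dox, far higher in C11 than in the other clones in both states.

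Of 20 X-linked regulators and enzymes 11 fell, 2 rose and 7 did not pass (median -0.18). Gla, the lysosomal alpha-galactosidase, fell by -0.55, at 26.5, 33.5 and 40.0 RPM without Dox and 19.7, 24.0 and 25.6 RPM with Dox. Pgk1 was at 120.2, 129 and 160.4 RPM without Dox and 86.2, 99.7 and 115 RPM with Dox, without overlap between the groups, and fell by -0.47. Phf6 fell by -0.29, the pyruvate dehydrogenase subunit gene Pdha1 by -0.25, Hprt by -0.19, the ubiquitin ligase gene Huwe1 by -0.20 and the chromatin remodeller gene Atrx by -0.17. Ogt, the enzyme that adds O-GlcNAc to proteins, rose in each clone (0.28, 0.24 and 0.27, SE of the mean change 0.04), at 594, 622 and 669.9 RPM without Dox and 728, 765 and 816 RPM with Dox. Without C1, 6 of the list fell and 1 rose, and in the fit of all 12 libraries 6 fell and 0 rose.

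The parental counts separate the induced chromosome from the other one. Of the 186 X-linked genes that fell, 96 had allelic counts and a NoDox share between 0.1 and 0.9. They were chosen by a fall of the total, of which the parental counts are a part, so that falls on the chromosomes follow in part from the choice, and the gap between Xi and Xa is what is read here. In 75 of the 96 the change was more negative on Xi than on Xa. The median log2 change was -0.37 on Xi and -0.21 on Xa. By clone it was -0.33, -0.31 and -0.38 on Xi and -0.22, -0.30 and -0.12 on Xa, so that the gap between the chromosomes was widest in C11 and smallest in 2C2. Of the 48 genes that rose, 31 had allelic counts, with medians of 0.23 on Xi and 0.29 on Xa, and in 23 of the 31 the change was lower on Xi than on Xa. A lower change on Xi was thus found in most genes of both sets and is not particular to those that fell. The share over all X-linked genes with allelic counts is not given here.

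The Xi share, Xi counts over the sum of Xi and Xa counts, was followed in 322 X-linked genes. Its median change with Dox was -0.0171, -0.00707 and -0.0329, so that all 3 clones were lower and C11 the most. The mean over the clones was -0.0190 ± 0.0130 (SD, n = 3, exact sign-flip p = 0.25, the smallest possible). For 12673 autosomal genes the median change of the 129S share was -0.000335, -0.000142 and -0.00150. With no limit on the NoDox share the median change in Xi share was -0.00166 in the mean of the clones. The Xi share was lower in all 3 clones for 93 of the 322 genes (28.9%), and 14 (4.35%) were higher in all 3. On autosomes 15.0% were lower and 13.7% higher in all 3. Of the 322 genes 28 lie between 100 and 120 Mb, 8 between 120 and 140 Mb, 5 between 140 and 160 Mb and 1 beyond. Rlim, Ap1s2 and Gpr143 are not among the 322, and their falls were not split by chromosome. The larger fall in C11 lay mainly between 40 and 100 Mb, with medians of -0.0448, -0.0463 and -0.0554 in its 3 windows, against -0.0167, -0.0165 and -0.0250 in C1 and 0.00149, -0.00957 and -0.0222 in 2C2. Between 120 and 140 Mb, with 8 genes, the medians were -0.0348 in C1, 0.0129 in 2C2 and 0.0163 in C11. In 2C2 the medians from 0 to 20 and from 20 to 40 Mb were just above 0 (0.000543 and 0.000511).

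**Figure D5:**
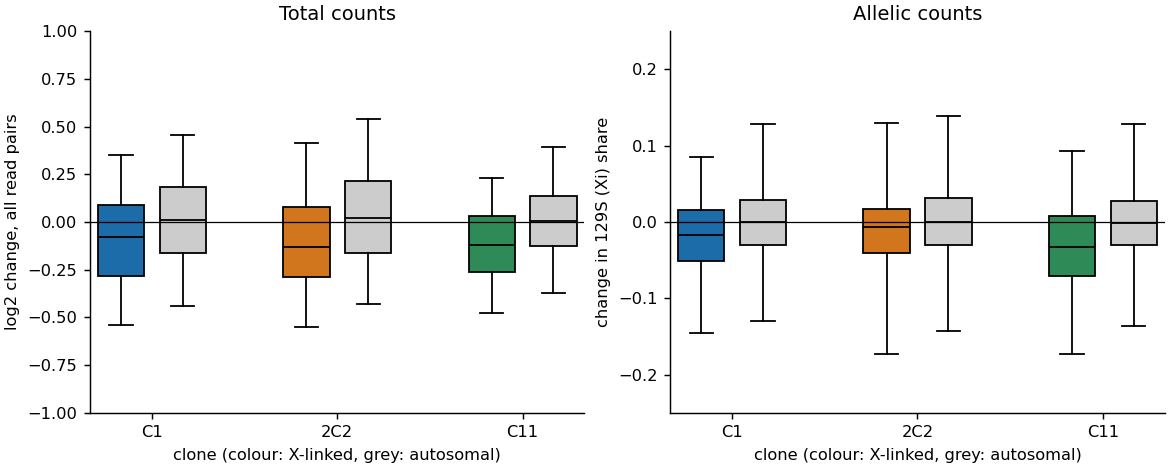
Log2 change of total counts (left, genes that average 50 counts or more) and change in the 129S share (right, genes tested for an allelic change) per clone, for X-linked genes without Xist in colour and autosomal genes in grey, with boxes over the middle 50% of genes, the line at the median and whiskers from the 5th to the 95th percentile. X-linked medians lie below the autosomal ones in every clone, least for the share in 2C2 (-0.00707) and most in C11 (-0.0329).

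An edgeR test of the allele by Dox term called 142 of 12996 genes (1.09%). On the X 18 of 322 genes (5.59%) had a lower Xi share and 0 (0%) a higher one, with 74 and 3 at an unadjusted p under 0.05, and limma called 0 higher. Among 12673 autosomal genes the 129S share fell in 66 (0.521%) and rose in 58 (0.458%). Of the 18 X-linked genes 17 were lower in all 3 clones, and the exception was Dmd, which was higher in 2C2 (named after its values were seen). This agreement follows in part from a call made on the same clones. All 18 were also called by limma on the change in log-odds of each clone, a test chosen after the data were seen. Without the clone as a block none of the 12996 passed in edgeR (507 had an unadjusted p under 0.05), and without C1, 2C2 or C11 there were 54, 72 and 76. Of the X-linked genes 14, 19 and 7 had a lower Xi share in those fits, the fewest where C11 was left out.

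Among the 18 X-linked genes past the threshold, the largest fall in Xi share after Tsix was in 4930519F16Rik. This gene lies close to Xist on its proximal side. Its Xi share was 0.345, 0.397 and 0.379 without Dox and 0.25, 0.275 and 0.328 with Dox. Its mean log2 change was -0.53 on Xi and 0.07 on Xa, and its total count did not pass the test (-0.27, 0.08 and -0.07), except that it was called lower without 2C2 (-0.17, edgeR adjusted p = 0.0412). Eda, the ectodysplasin ligand of ectodermal organs, had a share of 0.491, 0.485 and 0.499 without Dox and 0.445, 0.445 and 0.406 with Dox. Its mean log2 change was -0.12 on Xi and 0.22 on Xa, and its total did not pass (0.06, SE 0.04). For Hdac8, a histone deacetylase, the share was 0.553, 0.595 and 0.609 without Dox and 0.522, 0.558 and 0.503 with Dox, lowest with Dox in C11, and its total did not pass either (-0.01, SE 0.06), although with the length trend removed it was called lower (-0.14, edgeR adjusted p = 0.0323).

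In other genes with a lower Xi share the total count fell as well. Fhl1, a LIM protein of muscle, had a share of 0.551, 0.612 and 0.585 without Dox and 0.502, 0.554 and 0.490 with Dox, and its total fell by -0.25 (SE 0.05), a call lost in the fit of all 12 libraries (-0.26, edgeR adjusted p = 0.0593). Aff2, of the AFF family of transcription regulators, was lower on both chromosomes, by -0.64 on Xi and -0.32 on Xa, and its total fell by -0.44. Tmem47 was at -0.49 on Xi and -0.19 on Xa, with a share of 0.591, 0.576 and 0.599 without Dox and 0.550, 0.547 and 0.512 with Dox. Msn, the membrane linker moesin, had a share of 0.544, 0.555 and 0.563 without Dox and 0.523, 0.512 and 0.470 with Dox, and its total call (-0.13, edgeR adjusted p = 0.0498) was lost when any of the 3 clones was left out (-0.16, -0.15 and -0.10 without C1, 2C2 and C11). It was also lost with no count filter, in DESeq2 and in the fit of all 12 libraries (-0.14, edgeR adjusted p = 0.309). Among these 8 genes the fall was largest in C11 for 6 and smallest in C11 for Tsix and 4930519F16Rik.

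Autosomal genes with an allelic change were spread over all autosomes and moved either way. These are named after their values were seen. The 129S share of Coil, which codes for the Cajal body protein coilin, changed by -0.120, -0.142 and -0.0841, and that of Zfand2a, a zinc finger protein induced by arsenite, by 0.143, 0.0688 and 0.130. For Spp1, osteopontin, the changes were 0.0526, 0.0527 and 0.0611, and for the neuronal gene repressor Rest they were 0.0801, 0.0684 and 0.0309. Of the 66 autosomal genes with a lower share 64 were lower in all 3 clones, and of the 58 with a higher share 57 were higher in all 3. As these genes were called from the same clones, that agreement follows in part from the call. The limma test called 120 of the 124, and without C1, 2C2 or C11 edgeR called 40, 53 and 69 autosomal genes.

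Which of these responses differ from those of a line with the A-repeat was tested against 11C. That line lacks the m6A region, and its 2 pairs are repeats of the same line, whereas the 3 clones are separate lines. In a difference from 11C, the A-repeat, the m6A deletion and the line itself cannot be told apart. Of 15745 genes, 117 (0.743%) had a Dox response that differed (edgeR, Dox by line term, pair as block). Among 618 X-linked genes other than Xist, 59 (9.55%) had a lower response in 11C and 0 (0%) a higher one, with 312 and 2 at an unadjusted p under 0.05 in edgeR. On 15125 autosomal genes 30 (0.198%) were lower and 27 (0.179%) higher in 11C. Xist itself rose more in 11C, by 1.96 in log2 (SE 0.21, edgeR adjusted p = 0.00166). Tro, the adhesion protein trophinin, was at 58.3, 51.2 and 46.6 RPM without Dox and 50.8, 47.5 and 39.9 RPM with Dox, a change of -0.21, -0.17 and -0.24, against -1.25 and -1.19 in the 11C pairs. The log2 fold change of Tro in the clones was -0.20 without C1 (edgeR adjusted p = 0.123) and -0.21 in the fit of all 12 libraries (edgeR adjusted p = 0.0855), and the difference between the lines was -1.0 (SE 0.12, edgeR adjusted p = 0.00225). Mageb16, of the MAGE family, had log2 changes of 0.07, 0.27 and -0.22 in the clones and of -1.37 and -1.12 in the 11C pairs, a difference of -1.26 (SE 0.15). Within the clones Mageb16 did not pass, and the log2 fold change of Mageb16 was 0.16 without C11 (edgeR adjusted p = 0.0447).

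On the autosomes Syn2, a protein of synaptic vesicles, rose in the clones, at 9.91, 9.85 and 10.0 RPM without Dox and 15.9, 16.6 and 15.1 RPM with Dox, and was lower with Dox in both 11C pairs (-0.67 and -0.47), a difference of -1.20 (SE 0.16). The short gene 5730408K05Rik went the other way, with -0.34, -0.39 and -0.14 in the clones and 0.81 and 0.96 in the 11C pairs. Its fall in the clones was lost without C1 or 2C2 (edgeR adjusted p = 0.113 and 0.152) and in DESeq2 (adjusted p = 0.0705). In the fit of all 12 libraries it was -0.29 (edgeR adjusted p = 0.0635), and with the length trend removed its log2 fold change was -0.00515 (edgeR adjusted p = 0.972). In the WT pair Syn2 was at 0.03 and 5730408K05Rik at -0.15, where Syn2 lay between the clones and 11C and 5730408K05Rik within the range of the clones. Without the pair as a block none of the 15745 genes passed in edgeR (233 had an unadjusted p under 0.05). Without C1, 2C2 or C11 the fit called 17, 15 and 46, of which 11, 10 and 28 were X-linked genes lower in 11C, and without the first or the second 11C pair, which leaves 1 pair of 11C, it called 1111 and 1611, with 110 and 295 such genes.

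The X-linked genes called in the clones can be set beside the other lines. Of 176 that fell and average 50 counts or more, 176 were lower in the WT pair, 173 in the first and 166 in the second 11C pair. Relative to autosomal genes their median was -0.74 in WT and -0.72 and -0.43 in 11C, each further below 0 than the clones' median fall. Of 45 that rose in the clones, 3 were higher in WT, 0 in the first and 3 in the second 11C pair, where the medians were -0.34, -0.45 and -0.24. Most genes of either set were thus not higher in these lines. The counts of the 176 were not set beside the share over all X-linked genes and do not mark those genes out. Of the 6 named rises, Slc25a43 (-1.04), Tsc22d3 (-1.15), 3010001F23Rik (-1.42), Frmd7 (-1.04) and Zmat1 (-1.32) differed from 11C in the tested log2 difference, and Gm14634 (-0.49, edgeR adjusted p = 0.393) did not pass. The 6 were chosen by their rise in the clones, which enter this difference, so that a lower response in 11C follows in part from the choice. Of all 618 X-linked genes other than Xist, 312 were lower and 2 higher in 11C at an unadjusted p under 0.05 in edgeR. None of the 10 named X-linked falls differed from 11C past the threshold, among them Rlim with -0.52 (SE 0.17, edgeR adjusted p = 0.186). They were chosen by their fall in the clones, which moves this difference towards 0, so that the named rises and falls cannot be compared by it.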

How the data were processed

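Chromatin-associated RNA was measured in 12 libraries, 6 of them of the 3 A-repeat deletion clones, which are separate cell lines. The gene counts used here are as the authors deposited them, raw counts per gene of all read pairs (column 7) and of those assigned to a parental genome (columns 8 and 9), made per the file headers with featureCounts 1.5.2 over mm10 gene spans with strand setting 2, after STAR 2.4.2a and Bowtie2 2.3.2. Gene positions and spans are those of the count files. Gene IDs were matched by name to GENCODE M21, which holds 94.6% of the gene names, and the A-repeat units were placed in M21. Scaling was by TMM, genes were kept by filterByExpr with a minimum count of 10, and the Dox effect was tested with edgeR 4.0.16 (quasi-likelihood, clone as block, R 4.3.3) and adjusted by Benjamini-Hochberg. Allelic change was the allele by Dox term on genes that average 10 or more allelic counts and have a NoDox share from 0.1 to 0.9. The difference from 11C was the Dox by line term with the pair as block. WT, with 1 pair, gave values only. Values of the WT and 11C pairs and of X windows are relative to the autosomal median of that pair or clone. Per-clone log2 changes used a pseudocount of 0.5. Exact tests and Wilson intervals used scipy 1.17.1 in Python 3.11.15. The fits were also run on simulated data, and no result of that run is given here.

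The pairing of libraries by clone was checked over 12072 genes. Deviations from the group mean correlated between the NoDox and the Dox library of 1 clone at 0.828, 0.637 and 0.740, and between clones at -0.649 to -0.124. These correlations are across genes, which are not independent replicates. Depth was 22949578 to 27489603 counts on genes per library.

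Named genes are Xist and Tsix, and, among genes past the threshold that moved the same way in all 3 clones with a mean of at least 50 counts, the 12 autosomal genes with the largest rise, the 12 with the largest fall, the 10 X-linked genes with the largest fall and the 6 with the largest rise. To these were added the 8 X-linked genes with the largest fall in Xi share past the threshold, the 5 genes with the smallest p for a difference from 11C, and examples of the gene lists. The members and lists were chosen with earlier results of these data known. Alternatives were RLE and autosomal TMM scaling, DESeq2 1.42.0, other count filters, each clone or 11C pair left out, no block, all 12 libraries in 1 fit and a length trend removed per library. limma 3.58.1 for the allelic change was chosen after seeing the data. WT and 11C were left out of the tests within the clones, and genes of the mitochondrial genome are not in the files.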

Additional observations from a re-analysis of the deposited data

Results flagged for a closer look

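The Dox response of 117 genes differed between XistDelA and 11C by an edgeR test of the Dox by line term. The line 11C keeps the A-repeat and lacks the m6A region. The named genes among the 117 are given here as the log2 response in 11C minus that in XistDelA. Xist rose more in 11C (1.96), and Tsix fell more (-0.67). X-linked genes that rose in the clones had a lower response in 11C, with Slc25a43 at -1.04, Tsc22d3 at -1.15, 3010001F23Rik at -1.42, Frmd7 at -1.04 and Zmat1 at -1.32. They were named for their rise in the clones, so that a lower response in 11C follows in part from the choice. Eda, whose Xi share fell in the clones, was at -0.79, Tro at -1.0 and Mageb16 at -1.26. On the autosomes 5730408K05Rik was at 1.19 and Syn2 at -1.20. Vegfa, of the glycolysis and hypoxia list, was at -0.82, and Zfand2a, named after its values were seen, at 0.65. WT has 1 pair, so that the same difference was not tested for it.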

How the results depend on the processing

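Under RLE scaling, TMM from autosomal genes, no count filter, a stricter one (50 counts on average) and a length trend removed, the number of genes called with Dox went from 4410 to between 4277 and 4517. DESeq2 called 2638 and a fit of all 12 libraries 1759. Leaving out 1 clone gave 2152 (C1) to 4996 (C11). Without the replicate block, that is without pairing by clone, 3 genes were called, and the allelic change and the difference from 11C each gave 0 (507 and 233 genes at an unadjusted p under 0.05 in edgeR). Leaving out 1 clone gave 54 to 76 genes with an allelic change, against 142. Leaving out 1 clone or 1 pair of 11C gave 15 to 1611 genes that differ from 11C, against 117, where the remaining pair of 11C is assumed to vary like the others. The median change in Xi share was -0.00166 with no limit on the NoDox share, which adds genes read almost only from 1 genome. For the other changes the cause was not tested.

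Of the 53 genes named by rank, 53 kept their direction and their side of the threshold under RLE scaling, under autosomal TMM and under the stricter filter, 52 did with no count filter and 50 with the length trend removed. In the fit of all 12 libraries 46 did, without C1, 2C2 or C11 47, 44 and 49, in DESeq2 40 of the 45 it gave an adjusted p, and without the replicate block 6. Of 93 genes given as examples of the lists, 90 of them called, 93 did so under autosomal TMM and with no count filter, 91 under RLE scaling, 88 of 88 under the stricter filter and 79 with the length trend removed. In the fit of all 12 libraries 60 did, without C1, 2C2 or C11 67, 80 and 83, in DESeq2 73 of 87 and without the replicate block 3. Some log2 fold changes near 0 turned or moved. The log2 fold change of 4930519F16Rik was 0.00399 without C1 and -0.17 without 2C2, where it was called (edgeR adjusted p = 0.0412), and the log2 fold change of Hdac8 was -0.058 without C1, 0.077 without C11, 0.00496 without the replicate block and -0.14 with the length trend removed, where it was called (edgeR adjusted p = 0.0323). The log2 fold change of Eda was -0.083 with the length trend removed, and the log2 fold change of Mageb16 was -0.063 without 2C2 and 0.16 without C11, where it was called (edgeR adjusted p = 0.0447). The log2 fold change of Jpx was -0.00405 without C1 and 0.38 without C11, where it was called, and the log2 fold change of Mid1 was -0.00580 with the length trend removed. The cause was not tested. Depth limits the shares of single genes. Few X-linked genes beyond 120 Mb had a usable Xi share, although many had enough total counts. Between 120 and 140 Mb 51 genes averaged 50 total counts or more and 8 had a usable share, against 54 and 58 between 0 and 20 Mb. What sets this was not tested.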

Other observations

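Mid1, which in the reference mouse genome lies at the boundary of the pseudoautosomal region, was at 9358 RPM without Dox and 10386 RPM with Dox in C11. In C1 it was at 528 and 581 RPM and in 2C2 at 546 and 622 RPM. In WT it was at 609 and 633 RPM, in the first 11C pair at 599 and 496 RPM and in the second at 609.8 and 562 RPM. Its log2 change with Dox was 0.13, 0.13 and 0.14 in the 3 clones.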
